A study of Mus musculus with 2 samples.

Results

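A set of 10 genes that mark long-term repopulating haematopoietic stem cells, with the surface marker Cd34 among them, were followed in stem cells of mice lacking the phosphatase Wip1 and of wild-type mice. They are Hlf, Mecom, Procr, Fgd5, Ctnnal1, Mllt3, Robo4, Esam, Cd34 and Prdm16. All probe sets whose only annotated gene was one of these 10 were taken, which gave 19 probe sets of the 34945 with 1 gene, and 10 genes of 18193. The choice of genes used no measured value, but it was made with results of these arrays already known. Total RNA was hybridised to Affymetrix expression arrays, 1 array of Wip1 knockout cells and 1 of wild-type cells, and both samples came from animals of 3 months. The labels call the cells haematopoietic stem cells and give neither the sort gate, the number or sex of the animals, nor how the Wip1 gene was disrupted. In bulk samples of this kind, fewer cells of a type and less RNA per cell cannot be told apart.

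Long-term stem cells are the small, mostly quiescent compartment at the top of blood formation, and they are known for lifelong self-renewal after transplantation. Their identity rests on a set of transcription factors and chromatin proteins and is read at the cell surface through a few receptors and adhesion molecules. Cd34 stands apart in this set: in adult mice the most durable stem cells carry little of its protein, and multipotent progenitors below them carry more. Wip1, encoded by Ppm1d, is a phosphatase known to dampen p53 and DNA damage signalling.

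The upstream sequences of 4 of the 10 genes are printed because their values turn the results: Hlf and Cd34 differed most between the arrays, whereas the related zinc finger genes Mecom and Prdm16 hardly differed in their brightest probe sets. Each is the 250 bases before an annotated transcript start in RefSeq, build GRCm38.p6, written in the direction of transcription. They are chr11:90390918-90391167, minus strand for Hlf, chr1:194938571-194938820, plus strand for Cd34, chr3:30509760-30510009, minus strand for the outermost start of Mecom, and chr4:154636874-154637123, minus strand for Prdm16. Capitals mark matches on either strand to any of 5 short motifs. The first is TGACGT, which is the core of the cyclic AMP response element. The second is AGATAA, bound by factors of the family of Gata2. Another is CGGAAG, which is bound by ETS factors such as Erg. An E-box is searched as CAGCTG, the site of basic helix-loop-helix factors. The last, TATAAA, is the motif of the basal transcription machinery.
Hlf: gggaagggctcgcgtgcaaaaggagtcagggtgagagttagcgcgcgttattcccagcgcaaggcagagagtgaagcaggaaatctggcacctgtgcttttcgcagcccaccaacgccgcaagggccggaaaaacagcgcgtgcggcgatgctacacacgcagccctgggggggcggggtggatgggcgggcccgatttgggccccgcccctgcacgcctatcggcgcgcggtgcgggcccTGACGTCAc
Cd34: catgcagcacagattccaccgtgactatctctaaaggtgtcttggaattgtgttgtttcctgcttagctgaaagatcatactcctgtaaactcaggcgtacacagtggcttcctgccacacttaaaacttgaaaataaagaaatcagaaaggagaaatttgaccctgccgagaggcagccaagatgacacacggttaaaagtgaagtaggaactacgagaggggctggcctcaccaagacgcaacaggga
Mecom: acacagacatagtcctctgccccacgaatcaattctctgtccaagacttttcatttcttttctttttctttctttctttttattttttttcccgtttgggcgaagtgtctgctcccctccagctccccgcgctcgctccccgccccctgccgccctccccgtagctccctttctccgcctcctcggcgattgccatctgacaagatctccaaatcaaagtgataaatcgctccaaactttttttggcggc
Prdm16: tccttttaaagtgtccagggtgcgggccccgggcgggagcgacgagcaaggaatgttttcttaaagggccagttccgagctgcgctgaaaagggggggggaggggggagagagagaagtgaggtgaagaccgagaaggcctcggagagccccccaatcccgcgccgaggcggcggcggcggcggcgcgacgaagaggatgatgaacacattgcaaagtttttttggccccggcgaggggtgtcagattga

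The Hlf window held the TGACGT core on both strands, as overlapping copies that begin 9 and 7 bases before the start. Of all 32851 windows of this kind in the table, 6.47% held that core. The GATA factor motif was in 9.99% of them, the ETS factor motif in 13.6%, the E-box in 13.0% and the last motif in 12.4%. The printed windows of Cd34, Mecom and Prdm16 had no match to these 5 motifs. A second Mecom window, not printed, held the ETS factor motif 43 bases before its start. Windows of Procr, Mllt3 and Robo4 held an E-box, and that of Procr held the ETS factor motif as well. A further motif, the GC box GGGCGG, was left in lower case because 32.7% of all windows had it. It occurred 3 times in the Hlf window, 2 times in the Mecom window, 1 time in the Prdm16 window and not in the Cd34 window. The GC content was 67.2% for Hlf, 46.4% for Cd34, 50.8% for Mecom and 62.4% for Prdm16, against a median of 52.4% over all windows. The table held windows for 9 of the 10 genes, 11 windows in all; the remaining gene is Esam. Among 53 pairs of windows from different genes, extended to 50 bases past the start, the longest run of identical bases was 24, shared by Mecom and Prdm16. It began 27 bases into the Mecom transcript and 10 bases into the Prdm16 transcript, and the next longest run in any pair was 11 bases. In Mecom the run of 24 reached the last base of the extended window, so its length is a lower bound. A match to a motif is a description of these letters and shows no binding.

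The values are the authors' summarised intensities, on a linear scale, and a higher value means more hybridised RNA for that probe set. They do not allow one probe set's level to be set against another's. A probe set counted as detected when at least 1 array lay above that array's median, with 25.9 for the knockout and 25.2 for the wild type. Of the 19 probe sets, 16 were detected, each of them on both arrays, and every one of the 10 genes kept at least 1. Differences are log2 knockout minus wild type, centred so that the median over detected gene probe sets is 0, which moved them by 0.01. With 1 array per genotype there is no test and no p-value. The one spread the file offers is how far probe sets of the same gene disagree, with an SD of 0.22 on the log2 scale over 5084 genes, and it contains no variation between animals or arrays.

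Hlf was the only one of the 10 genes past 1.5-fold, and it was higher in the knockout in both of its probe sets. Cd34 and Robo4 were also higher, by more than that SD and less than 1.5-fold. The 7 other genes differed by less than the SD in their brightest probe set. Among the probe sets, 2 of 16 were at least 1.5-fold higher in the knockout, where 3.02% of 19906 detected gene probe sets were. None of the 16 was 1.5-fold lower, where 1.48% of all were. At the level of genes, each by its brightest probe set, 1 of 10 was at least 1.5-fold higher, against 2.28% of 11440 detected genes. None of the 10 was at least 1.5-fold lower, against 1.57%, and none reached 2-fold, against 0.664% in either direction. The 10 genes had a median difference of 0.08, with 7 higher and 3 lower, and the median over all detected genes was -0.0031. Fgd5 counted among the 7 through the centring alone, and without centring 6 were higher and 3 lower. Of all detected genes, 49.4% were higher. Without Hlf and Cd34 the median of the remaining 8 was 0.03. Within 1 SD of 0 lay 10 of the 16 probe sets (62.5%), close to the 64.3% of all detected gene probe sets.

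**Figure D1:**
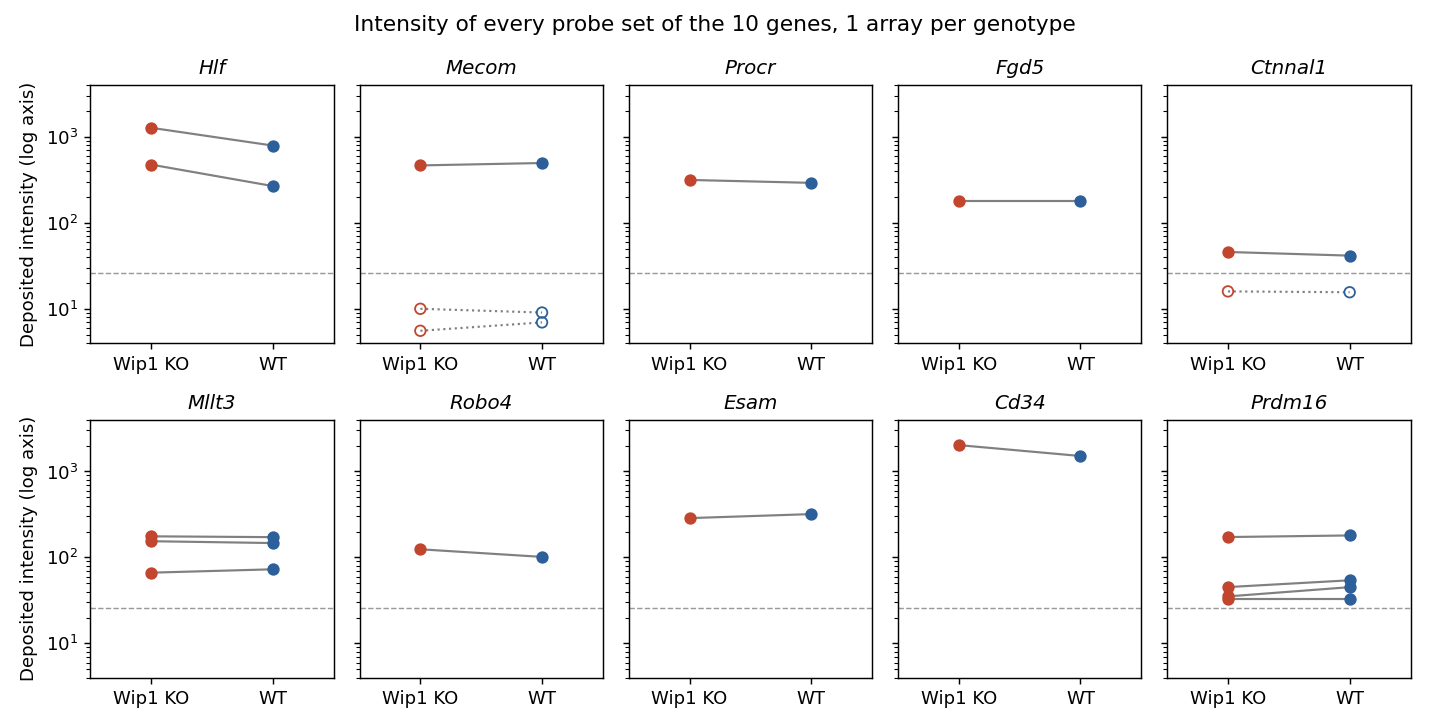
Deposited intensity (log axis) of every probe set of the 10 genes, with the Wip1 knockout array on the left and the wild-type array on the right of each panel; lines join the same probe set, open circles with dotted lines are probe sets not detected, and the dashed line is the knockout floor of 25.9. The lines of Hlf and Cd34 slope down to the right, the single line of Fgd5 is flat, and 2 Mecom probe sets and 1 Ctnnal1 probe set lie under the floor.

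The transcription factors come first. Hlf encodes a basic leucine zipper factor of the PAR family that is enriched in stem cells and known to help keep them quiescent. Its brightest probe set, 1434736_at, had an intensity of 1270 in the knockout against 788 in the wild type, a log2 difference of 0.70 (1.62-fold higher). The other, 1434735_at, had 474 in the knockout against 267 in the wild type, a difference of 0.84 (1.79-fold higher). Both probe sets were far above the floor on both arrays and differed the same way, at 3.19 and 3.84 times the SD between probe sets. They derive from the same sequence entry in the platform annotation, so they share their source and are not separate evidence. Among detected gene probe sets, 364 (1.83%) were at least as far up as the brighter one and 203 (1.02%) as the dimmer one. When detected gene probe sets were split into 10 equal bins of mean intensity, 1.51% of the bin with the brighter Hlf probe set and 1.96% of the bin with the dimmer one were 1.5-fold higher or more. The relatives of Hlf that bind similar sites lay near 0: Tef was at -0.01, Dbp at -0.10 and the repressor Nfil3 at -0.03.

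Mecom encodes the zinc finger factor of the Evi1 locus, required for long-term stem cells in mice. Its detected probe set, 1438325_at, had an intensity of 463 in the knockout against 494 in the wild type, a difference of -0.08. The other 2 were under the floor on both arrays: 1422295_at had 9.97 in the knockout against 9.02 in the wild type, and 1423011_at had 5.53 in the knockout against 6.93 in the wild type. These 2 carry RefSeq transcripts of the gene in the platform annotation and the bright one carries no entry there. The value of Mecom thus rests on 1 probe set, and which of the gene's transcript forms it reads is not settled by the annotation.

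Prdm16, the closest relative of Mecom and likewise a factor known to maintain stem cells, had 4 detected probe sets that did not all give the same value. The brightest, 1440870_at, had 173 in the knockout against 180 in the wild type (-0.05). The next, 1429308_at, had 45.2 in the knockout against 54.2 in the wild type (-0.25), and 1440745_at had 35.2 in the knockout against 45.1 in the wild type (-0.35). The last, 1429309_at, held exactly the same intensity, 33.0, on both arrays, and it shares its sequence entry with 1429308_at. No Prdm16 probe set was higher by more than the centring, and the 2 that were lower by more than the SD lay within 3 times the floor. The range between its probe sets, 0.36 on the log2 scale, exceeded the SD of 0.22. Taken over its probe sets, the median of Prdm16 was -0.15, against -0.05 by the brightest. Of the other PRDM genes detected, Prdm2 was at -0.17, Prdm4 at -0.10 and Prdm10 at -0.12.

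Mllt3, also called Af9, is a chromatin reader of the machinery that recruits Dot1l and elongation factors, and is known to sustain stem cell self-renewal. Its 3 probe sets went both ways and stayed within the SD. Probe set 1429205_at had 176 in the knockout against 172 in the wild type (0.04), and 1431890_a_at had 154 in the knockout against 147 in the wild type (0.08). The dimmest, 1453622_s_at, had 66.5 in the knockout against 72.8 in the wild type (-0.12). Its paralogue Mllt1 was at -0.02, and its partners Dot1l and Aff4 were at 0.16 and 0.14.

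**Figure D2:**
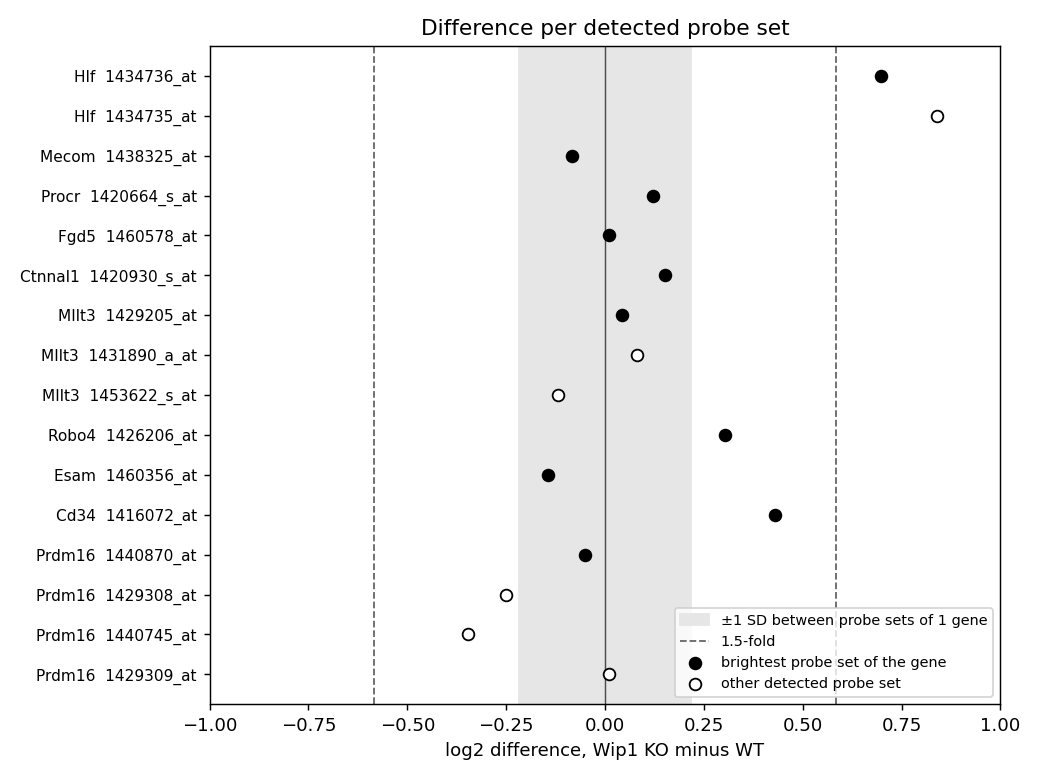
Log2 difference, Wip1 knockout minus wild type, of each of the 16 detected probe sets, with the brightest probe set of a gene filled and the others open; the grey band is 1 SD between probe sets of one gene (0.22) and the dashed lines are 1.5-fold. Both Hlf probe sets lie right of the upper line, Cd34 and Robo4 lie between the band and that line, and 2 Prdm16 probe sets lie left of the band.

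Among the surface proteins, Cd34 had the largest difference. It encodes a sialomucin of stem and progenitor cells and of endothelium. Its only probe set, 1416072_at, had an intensity of 2025 in the knockout against 1512 in the wild type, 1.35-fold higher (0.43, or 1.97 times the SD). Of all detected gene probe sets, 6.24% were at least as far up. The gene for podocalyxin, Podxl, a sialomucin of the CD34 family, went the other way: its detected probe set had 47.7 in the knockout against 88.2 in the wild type (-0.88, 1.84-fold lower). A second Podxl probe set was under the floor on both arrays, and the remaining gene of the family, Podxl2, was not detected.

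Procr encodes the endothelial protein C receptor, a surface marker used to sort the most primitive stem cells. Its probe set 1420664_s_at had 314 in the knockout against 291 in the wild type (0.12). Esam, an adhesion molecule of the immunoglobulin superfamily that marks stem cells and endothelium, had 287 in the knockout against 319 in the wild type (-0.14). Robo4, a guidance receptor known from endothelium and for anchoring stem cells in the marrow, had 124 in the knockout against 102 in the wild type (0.30, 1.23-fold higher). Each of these 3 genes had a single probe set. Procr and Esam differed by less than the SD, in opposite directions, and Robo4 by 1.39 times the SD, with 12.0% of detected gene probe sets at least as far up. With the floor raised to the 75th percentile Robo4 stood at 0.20, under the SD. Robo4 and Esam lie close together on chromosome 9, with 2 protein-coding genes between them, Robo3 and Msantd2. Msantd2 was at -0.03 and Robo3 was not detected.

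The remaining 2 genes are known in this field mainly through reporter alleles that mark stem cells. Fgd5, an exchange factor for the GTPase Cdc42, held exactly the same intensity, 177, on both arrays in its only probe set, so its difference of 0.01 is the centring alone. Identical values on both arrays occurred in 513 detected gene probe sets (2.58%). Ctnnal1, which encodes alpha-catulin, had 45.7 in the knockout against 41.4 in the wild type (0.15) in 1420930_s_at. Its other probe set, 1420929_at, was under the floor on both arrays (15.9 in the knockout, 15.5 in the wild type). Ctnnal1 was thus measured at less than 2 times the floor, and Cdc42 itself was at 0.07.

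**Figure D3:**
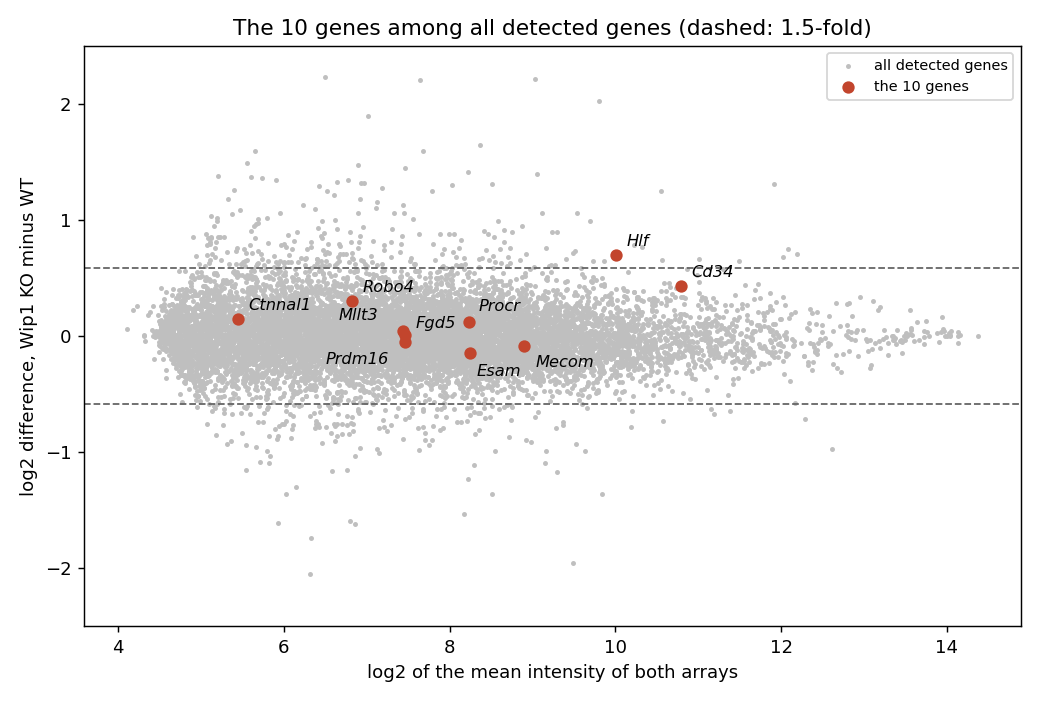
Log2 difference, Wip1 knockout minus wild type, against the log2 of the mean intensity of both arrays for the 11440 detected genes (grey), each by its brightest probe set, with the 10 genes in red; dashed lines are 1.5-fold, and 1 gene lies outside the axis. Hlf lies above the upper line and Cd34 below it, both on the bright side, and the 8 others lie inside the main cloud.

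The 10 genes were set beside other lists of genes, each gene by its brightest probe set. All lists were chosen with earlier results of these data known, so their shares only describe these arrays. Of 30 further stem cell genes, 25 were detected, and they spread more widely than the 10. In that list 1 gene was at least 1.5-fold higher in the knockout (4%) and 6 were lower by that much (24%), against 2.28% and 1.57% of all detected genes, and the median was -0.03. Probe sets of some genes disagreed: Slamf1, counted as lower (-0.66), had a median of -0.29 over its 3 probe sets. Meis1 was at -0.21 by its brightest probe set and at 1.82 by the other. The transglutaminase gene Tgm2 had 529 in the knockout against 1057 in the wild type (-0.99), with its 5 detected probe sets between -0.99 and -0.22. Mmrn1, a platelet and endothelial multimerin, had 147 in the knockout against 283 in the wild type (-0.94). Genes of multipotent and lymphoid-primed progenitors were mostly higher. All 18 with a probe set were detected, 15 higher and 3 lower, 7 of them past 1.5-fold upward (38.9%) and 1 downward, with a median of 0.42. The 1 downward was Ighm (-0.97), whose 6 detected probe sets ran from -0.97 to 0.64 with a median of -0.23. Ccr9 and Rag1 were above the floor in the knockout alone, so their direction was fixed by the filter. Of the 16 genes above it on both arrays 13 were higher, 6 of them past 1.5-fold (37.5%), again with a median of 0.42. Wfdc17, which encodes a small secreted protein and lies near Ppm1d on chromosome 11, had 1438 in the knockout against 356 in the wild type (2.03), and the chemokine receptor gene Ccr9, under the floor in the wild type, was at least 3.02-fold higher by its brightest probe set (75.8 in the knockout, 25.2 in the wild type). Another Ccr9 probe set was at least 0.47 higher and the other 3 were under the floor. Whether progenitor cells had a part in the values of Cd34 and Hlf was not tested.

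Several of the 10 genes are also active in endothelium, megakaryocytes or committed cells, so markers of these were read in the same way. Of 15 endothelial markers 11 were detected, and Cdh5, Cldn5, Sox17 and Sox7 were under the floor on both arrays. The summed intensity of the 11 was 1186 in the knockout against 1120 in the wild type, with a median difference of 0.12. Sums of this kind weigh bright probe sets most and do not measure the amount of a cell type. Without Egfl7 the sums were 563 in the knockout against 542 in the wild type. Of the 11 markers 6 were higher and 5 lower, and 1 was past 1.5-fold (9.09%, against 2.28% of all genes upward). Aplnr and Stab2 were above the floor on 1 array alone, so their differences are bounds. Of the 9 markers above it on both arrays, 5 were higher and 4 lower. The nitric oxide synthase gene Nos3 (0.66) and the receptor gene Flt1 (0.40) were furthest from 0, both dim, and Ramp3 (-0.35) was the furthest down. All 8 detected megakaryocyte and platelet markers, of 12 listed, were lower, 2 of them at least 1.5-fold (25%, against 1.57% of all genes), with sums of 922 in the knockout against 1355 in the wild type and a median of -0.46. The platelet factor gene Pf4 was at -0.78 and the selectin gene Selp at -0.73. Committed myeloid and erythroid markers, 15 detected of 18, went both ways with a median of 0.0003. Past 1.5-fold were 4 upward (26.7%) and 2 downward (13.3%). Their sums were 13531 in the knockout against 14223 in the wild type, but 9866 in the knockout against 8725 in the wild type without the myeloperoxidase gene Mpo. The macrophage growth factor receptor gene Csf1r (1.40, with a median of 0.98 over 3 probe sets) and Ly86 (0.99) were furthest from 0. Furthest down were the erythroid factor gene Gata1 (-0.84), Ms4a3 (-0.72) and Mpo (-0.57). Mature lymphoid markers, 9 detected of 16, had a median of 0.01 and none past 1.5-fold, with Ebf1 at least 0.35 higher and Nkg7 at -0.31. Their sums were 1086 in the knockout against 1216 in the wild type, but 418 in the knockout against 382 in the wild type without Nkg7. Of the T cell genes Cd3d and Cd3g were under the floor on both arrays, whereas Cd3e (33.4 in the knockout, 39.0 in the wild type), Cd4 (36.7 in the knockout, 36.6 in the wild type) and Cd8a (29.4 in the knockout, 33.5 in the wild type) were just above it. The part of these cell types in the values of the 10 genes was not tested.

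Paralogues and partners of the 10 genes had medians near 0. Of 28 paralogues 17 were detected, 5 higher and 12 lower, with a median of -0.04, and Podxl was the only one past 1.5-fold (5.88%, against 3.85% of all genes in either direction); Fgd2, a relative of Fgd5, was next (0.56). Of 26 partners 20 were detected, 11 higher and 9 lower, with a median of 0.06. Skil, a Smad corepressor, was the only partner past 1.5-fold (5%), with 1787 in the knockout against 2789 in the wild type (-0.63). Selplg, which encodes a selectin ligand, followed at 0.34.

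**Figure D4:**
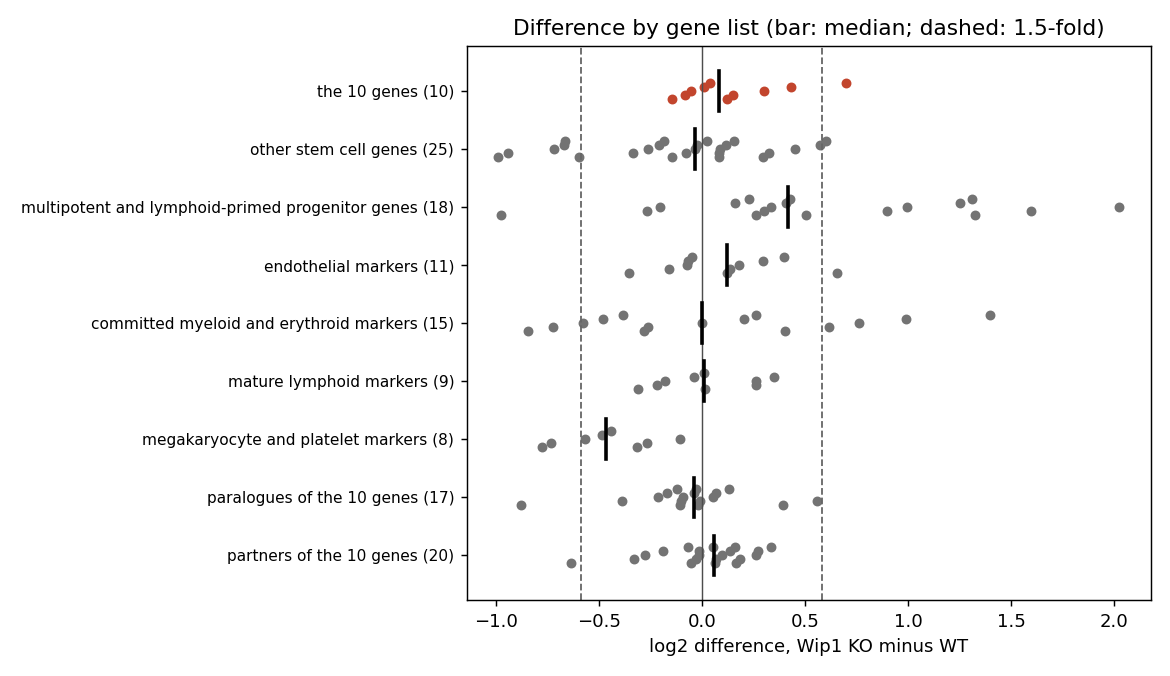
Log2 difference, Wip1 knockout minus wild type, of each detected gene by list (number detected in brackets), with the list's median as a bar and 1.5-fold as dashed lines. The 10 genes (red) sit between -0.14 and 0.70 and have 1 point past a dashed line, whereas the progenitor list has 7 points past the upper line and the other stem cell genes have 6 past the lower one.

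Because Hlf and the targeted gene Ppm1d lie on the same chromosome, 11, the genes around each of the 10 were examined, a comparison added after the values had been seen. One probe set of Ppm1d had 160 in the knockout against 167 in the wild type (-0.05), and the other had 59.0 in the knockout against 55.6 in the wild type (0.10). The sources used here do not place either of them inside or outside the disrupted part of the gene, so neither checks the genotype label. The nearest protein-coding neighbour of Hlf on one side, Stxbp4, which encodes a syntaxin-binding protein, was higher in the knockout as well. Its brightest probe set had 215 in the knockout against 125 in the wild type (0.79). Of its other 3 probe sets, one had 88.0 in the knockout against 52.3 in the wild type (0.76), one was at least 0.69 higher, and the dimmest was near the floor (22.9 in the knockout, 26.9 in the wild type). The neighbour on the other side, Mmd, was at 0.12 by its brightest probe set, and its others were at 0.11 and -0.29. Of the 19 distinct nearest detected neighbours of the 10 genes, Stxbp4 was the only one past 1.5-fold (5.26%, against 3.85% of all genes), and their median was -0.02.

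The stretch of chromosome 11 between Ppm1d and Hlf held 54 protein-coding genes in the RefSeq order, 34 of them detected. None of the 34 was at least 1.5-fold higher in the knockout, 2 were at least 1.5-fold lower (5.88%, against 1.57% of all genes), Dhx40 and Cuedc1, and the median was 0.03. On the other side of Ppm1d, 15 detected genes lay between it and Wfdc17, with 1 at least 1.5-fold higher (6.67%, against 2.28%), Wfdc18, and none lower by that much. Both stretches end at genes already seen to be higher in the knockout, Hlf (0.70) and Wfdc17 (2.03), and the counts leave these out. Stxbp4 lies just beyond Hlf and is not counted either. Over chromosome 11 as a whole 3.61% of 941 detected genes were past 1.5-fold in either direction, the twelfth highest share of 20 chromosomes and near the 3.85% of all genes. Whether DNA around the disrupted locus differed between the mice was not tested. The samples also differed in transcripts that depend on sex: Xist had 3778 in the knockout against 6228 in the wild type in its brightest probe set, and the Y-linked Eif2s3y had 149 in the knockout against 31.8 in the wild type. The part of sex in the values of the 10 genes was not tested.

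**Figure D5:**
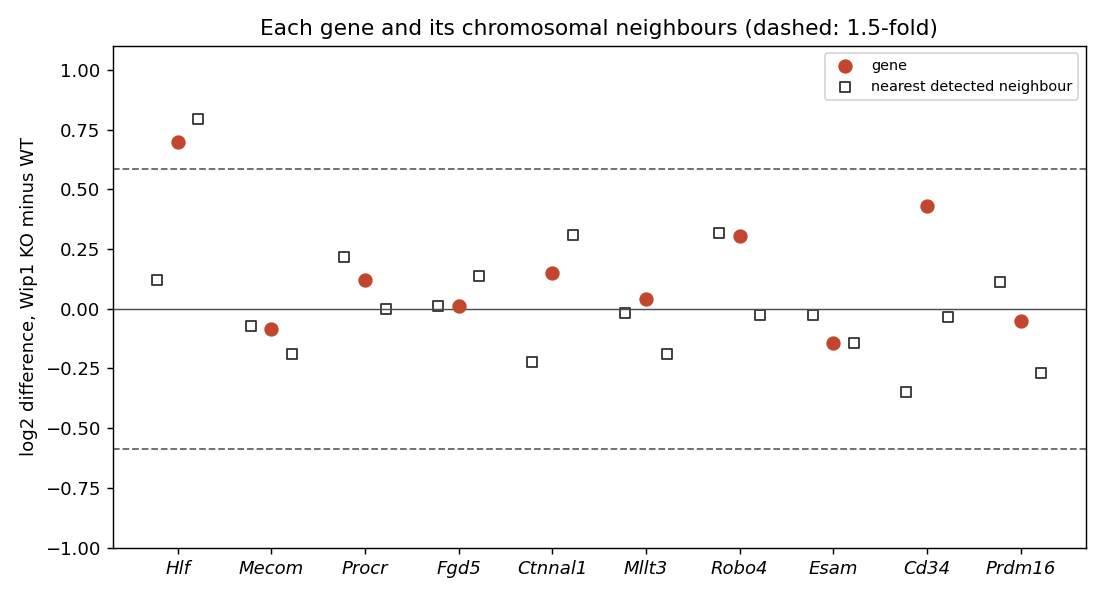
Log2 difference, Wip1 knockout minus wild type, of each of the 10 genes (red) and of the nearest protein-coding gene with a detected probe set on each side in the RefSeq gene order (open squares); dashed lines are 1.5-fold. Hlf (0.70) and its neighbour Stxbp4 (0.79) are the only points past a dashed line.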

How the data were processed

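The authors deposited intensity values on a linear scale, already summarised to 1 per probe set on each array, for 45037 probe sets. They run from 3.54 to 23180 over both arrays. MAS5 is the only program named, per the submitters' processing notes, and the sources used here do not say how the arrays were scaled. In 2535 probe sets (5.63%) both arrays held exactly the same value. Of the probe sets, 34945 had 1 gene in the platform annotation, 932 had several and 9160 were not listed there; symbols of 34741 were updated through RefSeq gene identifiers (GRCm38.p6), which gave only names and gene order beside the upstream sequences.

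From these intensities log2 values were computed with Python 3.11.15, numpy 2.4.6 and pandas 2.3.3 (loess with statsmodels 0.14.6). Values under an array's median (the 50th percentile) were raised to that median, which makes any difference from them a bound. Differences were centred by a shift of -0.01, and the brightest probe set, by the mean of both arrays, stood for its gene. The spread was pooled from deviations of probe sets from their gene's mean. With 1 array per genotype no test was made, and the number of arrays limits the precision. The fixed sizes were 1.5-fold and 2-fold. All of the 10 genes and Ppm1d were named, and from each other list the 2 detected genes furthest from 0; any other named gene was picked with its values known. The 10 genes and all lists were chosen with earlier results of these data known. The procedure was tested on simulated data, with changes of 2-fold or more placed in the brighter probe sets. Recovery of 1.5-fold changes, or of changes in dim probe sets, was not covered. Alternatives covered the normalization (uncentred, quantile or loess), the floor, an offset, the probe set classes, the value per gene and the fold size.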

Additional observations from a re-analysis of the deposited data

How the results depend on the processing

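The 10 genes' differences were recomputed under 9 alternatives to the scaling, the floor and the choice of probe sets. Hlf stayed higher in the knockout and past 1.5-fold in each of the settings that were run, between 0.68 and 0.77, and Cd34 stayed between 0.42 and 0.47. Robo4 lay between 0.20 and 0.30, Procr between 0.11 and 0.14 and Mllt3 between 0.03 and 0.06, all higher. Esam (-0.15 to -0.13), Mecom (-0.09 to -0.05) and Prdm16 (-0.15 to -0.03) stayed lower. Ctnnal1 lay between 0.09 and 0.15 where it was measured; it had no value with a floor at the 75th percentile, nor, like Procr, once only probe sets ending in a plain _at were used. Fgd5 lay between 0 and 0.03. The median of the 10 genes ranged from 0.02, with only plain _at probe sets and 8 genes left, to 0.09 after loess. With 2-fold in place of 1.5-fold, the count of probe sets past the size was 0 instead of 2 and the count of genes 0 instead of 1. Over all genes, an offset equal to the floor brought the share past 1.5-fold to 2.17%, against 3.85%. No paired analysis was possible because each genotype had 1 array, and for the same reason no array could be left out. Dim probe sets limit what can be said of Ctnnal1, of 3 of the 4 Prdm16 probe sets and of the Mllt3 probe set that was lower, which lay within 3 times the floor, and 2 of the 3 Mecom probe sets gave no difference at all.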
